A study of Mus musculus with 35 samples.

Results

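The comparison described here was between untreated cardiac fibroblasts (CFs) transfected with IAMP-siR-2 (siR-2), an siRNA against the transcript of the Inflammation Associated MicroPeptide (IAMP), and untreated CFs transfected with a nontargeting siRNA (Scrambled). It held 6 of the 35 RNA-Seq samples of the series, 3 siR-2 and 3 Scrambled libraries, which were chosen by their labels, and all genes in the table were considered. The cells were primary adherent cells grown in serum-containing medium from enzymatically dispersed hearts of adult mice, and all groups shared this preparation and received an siRNA. Untreated means that no cytokine was added after transfection. The labels do not give the strain of the mice. Their treatment protocol, with times for the siRNA and for IL-17, is the same text for all samples, heart tissue included. This text was taken to describe only the cells given IL-17. On that reading, the time from transfection to RNA isolation is not given for the untreated cells. The labels also do not say whether the 3 libraries of a group came from separate cultures. The P values below therefore measure the spread between these libraries. The cells compared with them further on were 3 untreated libraries with a second siRNA against the same transcript, IAMP-siR-1 (siR-1), and 3 siR-2 and 3 Scrambled libraries each from CFs given IL-17 or TGF-β.

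CFs make and remodel the collagen-rich matrix of the heart, and after injury they also act as sentinel cells that secrete chemokines, IL-6 family cytokines and matrix-degrading enzymes. In culture on stiff plastic with serum they divide and acquire contractile proteins of the myofibroblast. IAMP is a micropeptide, a short protein translated from a transcript, 4930523C07Rik, that was first annotated without a known product, and siRNAs guide Argonaute proteins to degrade the transcript they match.

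The 6 libraries were of like size, with 114763924 to 119232309 estimated counts in Scrambled and 116528769 to 117624048 in siR-2 cells. Levels are given in CPM, the estimated counts of a gene relative to the scaled library total. Mitochondrial transcripts took 2.518% to 2.629% of the counts in Scrambled and 2.27% to 2.332% in siR-2 cells, and 16960 to 17258 against 16573 to 16778 genes were over the detection floor, which was 18 estimated counts or 3 read pairs and corresponded on this scale to a mean of 0.148 CPM per library in Scrambled cells. The summed level of 24 CF identity genes ran from 15100 to 15400 CPM in Scrambled and from 15000 to 15300 CPM in siR-2 cells, and Wif1 was the one at or under the floor in the siR-2 libraries. Markers of other cells were present at lower levels and some sums moved with the siRNA. The 15 cardiomyocyte markers summed to 92.1 to 99.6 CPM and 28.2 to 33.4 CPM, mostly Tnnt2, with Myh6 at 0 in every library. The 14 endothelial markers fell from 340 to 384 CPM to 251 to 261 CPM, the 11 mural markers from 525 to 527 CPM to 300 to 314 CPM, and the 11 mesothelial markers from 319 to 349 CPM to 249 to 273 CPM. The 14 macrophage markers were at 65.5 to 70.5 CPM and 81.1 to 84.0 CPM, the 8 glial markers at 21.3 to 22.8 CPM and 26.6 to 27.3 CPM, and the 8 adipocyte markers at 16.1 to 18.3 CPM and 22.5 to 24.9 CPM, with Cidec at 0. Neutrophil markers summed to 0.942 to 1.49 CPM and 4.42 to 5.47 CPM, with S100a9 and Ly6g at 0, lymphocyte markers to no more than 0.584 CPM, and erythroid markers to no more than 1.31 CPM. In bulk RNA, fewer cells of a type and less RNA per cell cannot be told apart, and the part that these shifts played in the results below was not tested.

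The targeted gene was low in every siR-2 library. 4930523C07Rik (ENSMUSG00000090394, chr1:160044382-160080208 on the plus strand of GRCm38) was at 22.0, 22.7 and 25.8 CPM in the Scrambled libraries and at 1.76, 1.83 and 1.88 CPM in the siR-2 libraries, so that the groups did not overlap. Its level relative to siR-1 cells was also lower, by -0.72 on the log2 scale (edgeR quasi-likelihood test, Benjamini-Hochberg adjusted P = 6.11e-05). None of the 6 other genes tested within 500 kb of it fell. Cacybp, which encodes a binding protein of the S100 family member calcyclin, rose by 0.35 on the log2 scale and Rabgap1l, which encodes a Rab GTPase-activating protein, by 0.20, while Tnr rose by 1.64 from a mean of 0.121 CPM, under the floor, and lost its call without Scrambled replicate 1 or 3 or siR-2 replicate 3 (1.328 to 1.511). The antisense transcript 4930562F07Rik, which lies within the IAMP gene, was at a mean of 0.0930 CPM in Scrambled and 0.0229 CPM in siR-2 cells, both under the floor, and did not pass the test, except without siR-2 replicate 1 (edgeR adjusted P = 0.02215). The strand setting of the counting is not given in the sources used here, so reads of this transcript and of 4930523C07Rik may not be told apart.

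IAMP-siR-2 altered a large part of the transcriptome. Of 19669 genes tested with edgeR's quasi-likelihood test, 672 were called higher and 1423 called lower in siR-2 than in Scrambled cells, where a call required a 2-fold difference and an adjusted P not above 0.05, which is 3.42% and 7.23% of the genes tested. Without the fold threshold, 4794 genes rose (24.4%) and 4908 fell (25.0%), and these words are used below for any gene that passed the adjusted P alone. A gene is said to lose its call in a refit when its adjusted P rose over 0.05, whether or not its change stayed 2-fold. The counts given for gene lists below are to be read beside these shares of all genes. The median log2 fold change over all genes tested was -0.0201. The called genes had a median absolute log2 fold change of 1.458 when higher and 1.475 when lower, and 92 and 126 of them had a fitted change of more than 8-fold. A group was at or under the floor in 109 of the higher and 176 of the lower genes, where the fitted fold is not a measured size. A mean of at least 1 CPM was reached by 411 of the higher and 946 of the lower genes. Protein-coding genes made up 85.8% of the lower and 77.2% of the higher genes, against 76.2% of all genes tested. The share called lower was 7.19% among genes under 1 CPM, 11.5% at 1 to 10 CPM, 6.2% at 10 to 100 CPM and 3.02% at 100 CPM or more. The share called higher was 3.93%, 4.89%, 2.09% and 3.39% in the same ranges. In 97.3% of called genes of either direction every siR-2 library lay on one side of every Scrambled library, which was also the case for 56.7% of all genes tested.

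**Figure D1:**
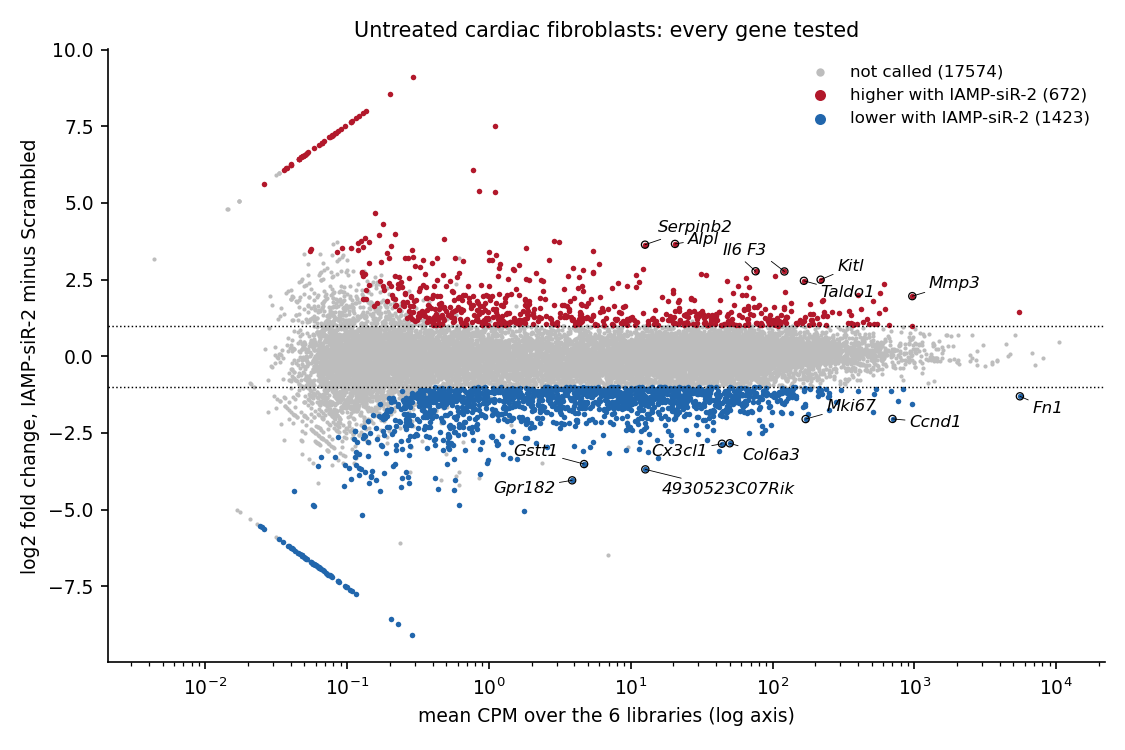
Log2 fold change of siR-2 against Scrambled CFs (y axis) against the mean level in CPM over the 6 libraries (x axis, log scale) for each of 19669 genes tested. Red points mark the 672 genes called higher and blue points the 1423 called lower, dotted lines mark a 2-fold difference, and the straight bands at the far left are genes with no reads in one group, whose fold change is not a measured size.

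The largest rises belonged to genes of unlike function. Serpinb2 (chr1:107511423-107535478), which encodes the plasminogen activator inhibitor PAI-2, was at 2.38, 1.79 and 1.46 CPM in Scrambled and 22.3, 23.4 and 24.3 CPM in siR-2 cells, a log2 fold change of 3.64 ± 0.13 (SE; edgeR adjusted P = 8.39e-13). Alpl, the tissue-nonspecific alkaline phosphatase, went from 2.86, 2.74 and 3.41 CPM to 40.4, 35.9 and 37.8 CPM, a log2 fold change of 3.66 ± 0.092. Both genes were low in all Scrambled libraries and uniformly high with siR-2. Mgam, an intestinal-type glucosidase, Muc15, a membrane mucin, Spink10, a protease inhibitor, and Sprr2g, a cornified envelope protein, rose by 3.42, 3.14, 3.39 and 3.29 on the log2 scale. Sprr2f and Ugt1a2 were at or under the floor in Scrambled cells and were at least 14.66-fold and 14.75-fold higher with siR-2, where the Sprr2 genes are near-identical copies of one another and the Ugt1a genes share exons, so that reads could be divided among their members.

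Among genes of at least 100 CPM, the largest rises after F3 and Cxcl5 were those of Kitl, Taldo1, Gfpt2 and Cd55. Kitl (chr10:100015630-100100416), the ligand of the receptor KIT, was at 64.7, 71.0 and 61.6 CPM in Scrambled and 343, 408 and 362 CPM in siR-2 cells. Taldo1, the transaldolase of the pentose phosphate pathway, was at 49.0, 53.3 and 51.5 CPM and 288, 286 and 271 CPM. Gfpt2, which catalyzes the first step of hexosamine synthesis, was at 199, 194 and 204 CPM and 1022, 1071 and 995 CPM, and it was the most abundant of the 4. Cd55, the complement decay-accelerating factor, rose from 42.8, 47.0 and 48.5 CPM to 209, 198 and 187 CPM. The log2 fold changes of these 4 genes were 2.50, 2.46, 2.37 and 2.1, with SEs of 0.033 to 0.069.

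Among the largest falls were those of Gstt1, Abat and Ptn. Gstt1, a theta-class glutathione transferase, fell from 9.47, 8.13 and 8.28 CPM to 0.874, 0.423 and 0.959 CPM, Abat, the transaminase that degrades GABA, from 28.6, 26.7 and 29.9 CPM to 3.17, 2.38 and 2.98 CPM, and Ptn, the heparin-binding growth factor pleiotrophin, from 73.8, 68.5 and 82.8 CPM to 8.52, 8.38 and 9.66 CPM. All 3 genes were separated by a wide gap between groups. Tet1, which oxidizes 5-methylcytosine, and Scara5, a ferritin receptor that also marks a fibroblast subset, fell by 3.33 and 3.18 on the log2 scale, and Lrrn3, a leucine-rich repeat protein of neurons, by 3.34, with a log2 fold change of -4.358 when siR-2 replicate 1 was left out. Among genes of at least 100 CPM, Ccnd1, Mki67, Pxdn, Prc1, Ptp4a1 and Trp53inp1 fell the most. Pxdn, the peroxidasin that crosslinks collagen IV, went from 290.2, 283 and 270.0 CPM to 78.4, 75.7 and 76.7 CPM, and Ptp4a1, a phosphatase of the PRL family that is listed under 2 gene identifiers, from 217, 211 and 209 CPM to 57.2, 56.8 and 61.4 CPM under the more abundant one. Under the other identifier the log2 fold change of Ptp4a1 was -0.9678, short of the 2-fold threshold.

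**Figure D2:**
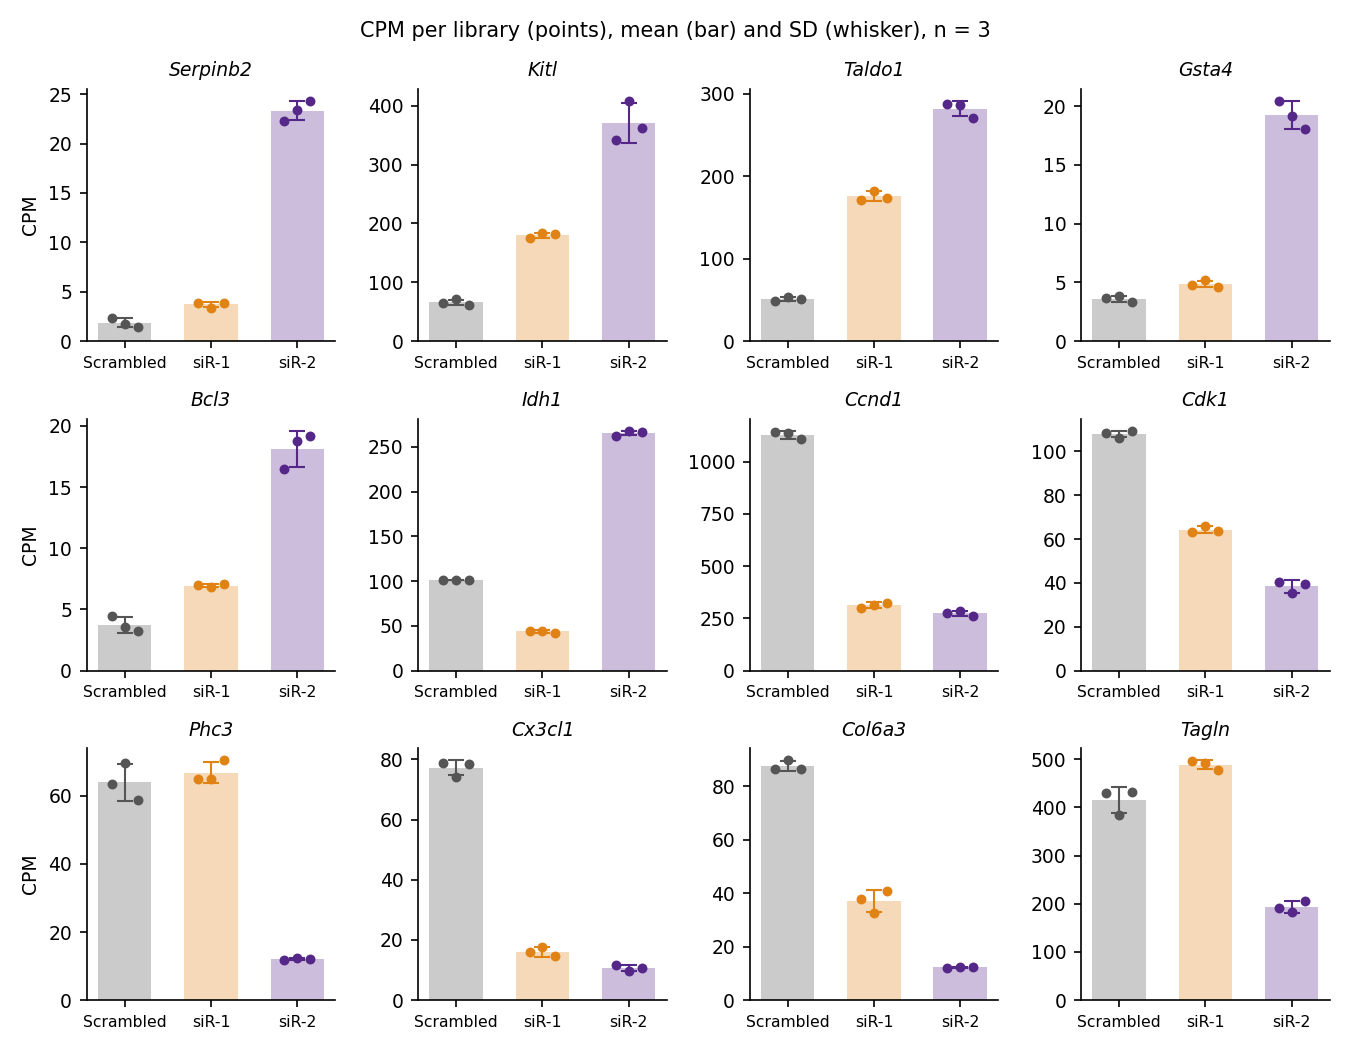
Level of 12 genes in CPM (y axis) in the 3 Scrambled, 3 siR-1 and 3 siR-2 libraries of untreated CFs, with points for libraries, bars for means and whiskers for SDs. The siR-2 libraries lie apart from the Scrambled libraries in all 12 genes, and in Idh1 the siR-1 libraries lie on the other side of Scrambled from the siR-2 libraries.

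Proliferation genes fell together. Cells that enter S phase transcribe the minichromosome maintenance (MCM) helicase, replication factors and nucleotide enzymes under E2F factors, and cells that enter mitosis transcribe cyclin B, CDK1, spindle and kinetochore genes, many of which carry the cell cycle homology region (CHR), a promoter element bound by the DREAM and MuvB complexes. Of 50 mitosis and spindle checkpoint genes, 47 were called lower, and of 40 DNA replication genes 25, against 7.23% of all genes, and none of either list was called higher. The median log2 fold change was -1.56 for mitosis and -1.19 for replication genes. Without the fold threshold, 49 mitosis genes fell and Pttg1, which encodes securin, rose by 0.35 on the log2 scale, and 39 replication genes fell, with E2f1 at a log2 fold change of -0.15 that did not pass the test. The rise of Pttg1 was lost without any single library other than Scrambled replicate 3 (0.2996 to 0.3782), and E2f1 passed when a minimum of 10 counts was required in every library (edgeR adjusted P = 0.04406).

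The promoter windows that follow are shown because they belong to cell cycle genes called lower and hold the motifs counted below. Each is 30 bases long, runs 5′ to 3′ along the strand of the gene, lies upstream of a RefSeq start site in GRCm38, and has the CHR letters TTTGAA or their reverse complement in capitals in the first 4 and an E2F site, TTTCCCGC or TTTGGCGC or a reverse complement, in capitals in the last 3. The Cdk1 window also holds TACGTG, letters of the hypoxia response element.
Cdk1, chr10:69352966-69352995, minus strand: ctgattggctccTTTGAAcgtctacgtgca
Prc1, chr7:80294434-80294463, plus strand: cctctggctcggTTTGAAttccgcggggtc
Mki67, chr7:135716460-135716489, minus strand: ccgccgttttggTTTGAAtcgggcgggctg
Top2a, chr11:99024351-99024380, minus strand: ctattggtccatTTTGAAgattctcccgcc
Cdc6, chr11:98908002-98908031, plus strand: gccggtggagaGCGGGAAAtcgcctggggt
E2f7, chr10:110745230-110745259, plus strand: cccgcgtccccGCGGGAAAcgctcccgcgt
Mcm5, chr8:75109349-75109378, plus strand: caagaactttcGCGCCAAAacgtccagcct

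Cdk1, the mitotic kinase, was at 108, 106 and 109 CPM in Scrambled and 40.6, 35.3 and 39.5 CPM in siR-2 cells, and its partner Ccnb1 was at 118, 111 and 122 CPM and 42.4, 38.9 and 43.7 CPM. Prc1, which bundles midzone microtubules, fell from 189, 184 and 179 CPM to 52.2, 48.9 and 50.6 CPM. For all 3 genes every siR-2 library was below every Scrambled library. Mki67, the proliferation antigen Ki-67, was at 273, 290.3 and 263 CPM and 68.0, 64.5 and 67.1 CPM, Top2a, the mitotic topoisomerase, at 248, 250.1 and 249 CPM and 83.2, 76.6 and 78.2 CPM, and Plk1, a mitotic kinase, at 94.1, 88.7 and 92.0 CPM and 28.8, 24.0 and 26.7 CPM. Deeper falls were seen for the kinetochore gene Nuf2, with a log2 fold change of -2.54 ± 0.069, and for Racgap1, a GTPase-activating protein of the central spindle, with -2.50 ± 0.082. In the replication list the atypical repressor E2f7 had the largest fall, with a log2 fold change of -2.03, and the licensing factor Cdc6 was at -1.66, thymidine kinase Tk1 at -1.61, Uhrf1, which maintains DNA methylation, at -1.60, and the helicase subunit Mcm5 at -1.39. Pcna, the sliding clamp, fell by 0.62 on the log2 scale.

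In RefSeq promoters of 300 bases, the CHR letters were present in 31 of 44 promoters (70.5%) of the mitosis genes and in 12.9% of 16266 promoters of all genes tested. The E2F letters were present in 11 of 39 promoters (28.2%) of the replication genes and in 2.55% of all. Among all genes called lower the shares were 16.9% and 4.35%, and after removal of both lists 15.1% and 3.85%. A match is a description of the letters in the window, and its part in the change of a gene was not tested.

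**Figure D3:**
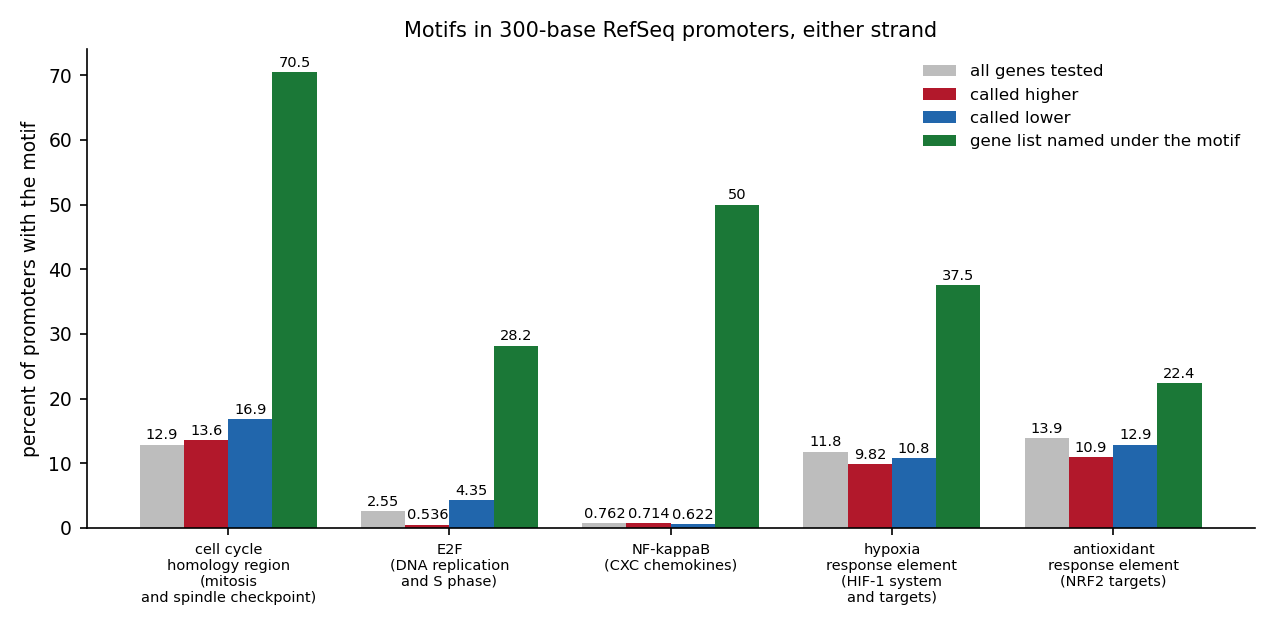
Percent of 300-base RefSeq promoters (y axis) that hold a motif on either strand, for all genes tested, genes called higher, genes called lower, and the gene list printed under each motif. The CHR is present in 70.5% of mitosis promoters against 12.9% of all, and the E2F letters are in 4.35% of promoters of genes called lower and 0.536% of those called higher against 2.55% of all.

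D-type cyclins, CDK inhibitors and p53 targets mostly fell as well. D-type cyclins link growth factor signals to entry into the cell cycle, and p53 induces a program that includes the CDK inhibitor p21 and stress genes. Of 32 genes in this list, 6 were called lower, none was called higher, 23 fell and 6 rose, and the median log2 fold change was -0.525. Ccnd1 (chr7:144929931-144939925), which encodes cyclin D1, was at 1144, 1138 and 1107 CPM in Scrambled and 274, 287 and 260.2 CPM in siR-2 cells, a log2 fold change of -2.05 ± 0.04 (edgeR adjusted P = 8.16e-16). Trp53inp1, a p53-inducible nuclear protein, fell from 170.4, 187 and 179.7 CPM to 49.9, 52.7 and 49.4 CPM, and Zmat3, an RNA-binding p53 target, from 149, 148 and 149 CPM to 59.0, 57.6 and 59.8 CPM. Eda2r, a receptor of the TNF receptor family, fell from 141, 143 and 137 CPM to 16.2, 35.3 and 34.7 CPM, with siR-2 replicate 1 below the other siR-2 libraries. Cdkn1a, which encodes p21, fell by only 0.14 on the log2 scale, and Mdm2, the ligase that degrades p53, rose by 0.24.

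In the PI3K list, 6 of 33 genes were called lower, none higher, 7 rose and 12 fell. Pik3ip1, a negative regulator of PI3K, was at 6.99, 6.39 and 6.69 CPM in Scrambled, 4.66, 2.89 and 3.17 CPM in siR-1 and 1.72, 1.52 and 1.45 CPM in siR-2 cells, a log2 fold change against Scrambled of -2.1 ± 0.17.

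Antioxidant and glutathione genes rose. The factor NRF2, encoded by Nfe2l2 and held in check by KEAP1, drives glutathione synthesis, glutathione transferases and NADPH-producing enzymes through antioxidant response elements. Of 45 genes in this list, 14 were called higher against 3.42% of all genes tested, 28 rose and 8 fell, and Gstt1 was the one called lower. Gsta1, an alpha-class transferase, was at 0.777, 1.10 and 0.893 CPM in Scrambled and 6.64, 6.94 and 6.97 CPM in siR-2 cells, and the related Gsta4 was at 3.64, 3.85 and 3.35 CPM and 20.4, 19.2 and 18.1 CPM. The alpha-class transferases are close paralogs, so reads may have been shared among Gsta1, Gsta2, Gsta3 and Gsta4. Mgst1, a microsomal transferase, was at 58.2, 56.3 and 62.5 CPM and 175, 187 and 179.6 CPM, Gclm, the modifier of glutathione synthesis, at 86.9, 77.3 and 77.5 CPM and 174, 166 and 169 CPM, and Srxn1, which repairs oxidized peroxiredoxins, at 123, 123 and 125 CPM and 336, 342 and 328 CPM. G6pdx, which opens the pentose phosphate pathway in which Taldo1 acts downstream, rose from 159.6, 159 and 159 CPM to 426, 430.0 and 425 CPM. Nqo1, a quinone reductase often used to read NRF2, rose by 0.73, Nfe2l2 itself by 0.63, and Keap1 fell by 0.57 on the log2 scale.

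The following windows are shown because they belong to 3 of the antioxidant genes called higher, with the core TGACNNNGC or its reverse complement in capitals.
Mgst1, chr6:138140460-138140489, plus strand: ggcggggcttgGCACGGTCAggaggcgggg
G6pdx, chrX:74428919-74428948, minus strand: gaggcgggtcaGCTCAGTCAaagcacacgc
Gclm, chr3:122245412-122245441, plus strand: cgctcccgggcGCACCGTCAactctcacga
The core was present in 11 of 49 promoters (22.4%) of this list and in 13.9% of all promoters. Among promoters of genes called higher the share was 10.9%, and among those of genes called lower 12.9%. In this list the core was also present for Gsta3, which was called higher, and for Gstm5, Gstm7 and Txnrd1, which were not called.

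Hypoxia and sugar metabolism genes rose by smaller amounts. HIF1A is stabilized when oxygen is low and raises glucose uptake and glycolysis, and of 29 genes of its system 17 rose and 5 fell, with Bnip3 called higher and Loxl2 called lower, where 3.42% and 7.23% of all genes were. Hif1a was at 199.6, 204 and 194 CPM in Scrambled and 267, 272 and 279 CPM in siR-2 cells. Bnip3, a mitophagy receptor, was at 25.4, 28.6 and 26.9 CPM and 64.3, 77.5 and 69.7 CPM, and the glucose transporter Slc2a1 rose by 0.94 on the log2 scale. Loxl2, a lysyl oxidase, fell from 567, 549 and 533 CPM to 236, 253 and 254 CPM. Of 23 glycolysis genes, 17 rose and Eno2, Ldhb and Pdk4 fell, with Pfkl and Aldoc called higher and Eno2 called lower, and Pfkl, the liver-type phosphofructokinase, had a log2 fold change of 1.25. The fall of Pdk4 was lost without Scrambled replicate 1 or 2 or siR-2 replicate 2 (-0.1893 to -0.1522). The hypoxia response letters TACGTG and GACGTG were in 37.5% of the promoters of HIF-1 genes and in 11.8% of all. Promoters of genes called higher held them in 9.82% of cases and those of genes called lower in 10.8%. The chaperone HSP90, whose isoforms are encoded by Hsp90aa1 and Hsp90ab1, rose by 0.14 and 0.34 on the log2 scale, and in the list of 26 chaperones 14 rose, 7 fell and none was called. Hspd1, the mitochondrial chaperonin, had a log2 fold change of 0.92.

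Chemokine genes changed in both directions. CXC chemokines with the ELR sequence attract neutrophils, CC chemokines attract monocytes, and NF-κB drives many of them. Of 10 CXC chemokines tested, Cxcl1, Cxcl3, Cxcl5 and Cxcl14 were called higher and Cxcl10 lower. Cxcl3 was at 0.57, 0.342 and 0.402 CPM in Scrambled and 5.40, 4.98 and 7.10 CPM in siR-2 cells, and Cxcl14, a chemokine of resting tissues, at 4.44, 3.47 and 4.02 CPM and 9.23, 8.51 and 8.77 CPM. Cxcl12, the ligand of CXCR4, moved the other way, from 256, 244 and 242 CPM to 156, 148 and 172 CPM. Cxcl10, an interferon-induced T cell chemokine, was at 13.6, 3.13 and 7.94 CPM and 0.454, 1.19 and 1.26 CPM, with a wide spread among the Scrambled libraries, and the call was lost without siR-2 replicate 1 (-2.747, edgeR adjusted P = 0.05912) or replicate 2 (-3.261, adjusted P = 0.05144).

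In the CC family, Ccl7, Ccl8 and Ccl11 were called higher and Ccl5, Ccl9, Ccl17 and Cx3cl1 lower, of 13 tested, where Ccl5 lost its call without Scrambled replicate 1 or siR-2 replicate 1 or 3 (log2 fold changes of -1.382 to -1.057) or with the replicate number as a block (-1.431, edgeR adjusted P = 0.0542). Cx3cl1, the membrane-bound fractalkine, was at 78.8, 74.3 and 78.6 CPM in Scrambled and 11.6, 9.83 and 10.6 CPM in siR-2 cells, a log2 fold change of -2.85 ± 0.074 (edgeR adjusted P = 1.39e-14). Ccl9 fell from 70.8, 62 and 74.7 CPM to 23.9, 24.3 and 28.7 CPM, and Ccl2, the main monocyte chemokine of fibroblasts, from 217, 194 and 219.7 CPM to 159.7, 159 and 184 CPM. Ccl11, which attracts eosinophils, was at 0 in all Scrambled libraries and at 0.386, 0.501 and 0.873 CPM with siR-2, at least 3.965-fold higher against the floor per library. Macrophages also make CC chemokines, and their summed markers were at 65.5 to 70.5 CPM and 81.1 to 84.0 CPM, the part of which was not tested.

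Regulators of NF-κB rose. In this list of 21 genes 16 rose and none fell, and Bcl3 was the one called. Bcl3, a nuclear IκB protein that binds p50 and p52, went from 4.48, 3.58 and 3.22 CPM to 16.5, 18.8 and 19.2 CPM, and Ikbke, a kinase of the interferon and NF-κB pathways, rose by 0.93 on the log2 scale. Nfkbia, which encodes IκBα, was at a log2 fold change of 0.13 and did not pass the test. In the IL-6 and IL-1 family, Il6, Socs3 and Osmr were called higher and Cntf and Il18 lower of 20 tested, where Il18 lost its call without Scrambled replicate 3 (-1.155, edgeR adjusted P = 0.05637). Socs3, the feedback inhibitor of IL-6 signaling, was at 15.9, 13 and 16.1 CPM and 35.0, 36.3 and 36.6 CPM, Osmr, the oncostatin M receptor, at 128, 132 and 116 CPM and 251, 267 and 261 CPM, and Il1r1, the IL-1 receptor, rose by 0.91 on the log2 scale. Of 16 acute-phase and S100 genes, 6 rose, none fell and S100a8 was called higher. S100a8 and Mmp8 are also the neutrophil markers that rose, and S100a9 and Ly6g were at 0 in every library. All neutrophil markers together summed to no more than 1.49 CPM in Scrambled and 5.47 CPM in siR-2 cells. The size of the rise of S100a8 therefore rests on few reads.

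NF-κB promoter windows are shown for the chemokines called in either direction, with GGAATTTCC or GGACTTTCC, or a reverse complement, in capitals.
Cxcl1, chr5:90891164-90891193, plus strand: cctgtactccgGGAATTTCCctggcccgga
Cxcl3, chr5:90786018-90786047, plus strand: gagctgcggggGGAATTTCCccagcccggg
Cxcl10, chr5:92349029-92349058, minus strand: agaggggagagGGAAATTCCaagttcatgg
These letters were in 4 of 8 promoters of the CXC chemokines, in 5 of 24 (20.8%) of the NF-κB regulators and in 0.762% of all promoters. Promoters of genes called higher held them in 0.714% of cases and those of genes called lower in 0.622%. Cxcl10, which holds them, fell while Cxcl1 and Cxcl3 rose.

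Immediate-early and interferon genes diverged. Of 31 AP-1 and immediate-early factors, 18 rose and 9 fell, with Cebpb, Cebpd, Nr4a3 and Egr3 called higher and Egr1, Fosb and Klf2 lower. Nr4a3, an orphan nuclear receptor, was at 10.3, 10.7 and 8.46 CPM in Scrambled and 35.5, 33.5 and 30.7 CPM in siR-2 cells, and Egr1, a serum-induced zinc finger factor, at 91.0, 92.4 and 97.3 CPM and 34.0, 35.0 and 32.4 CPM. The AP-1 site TGACTCA was in 43 of 560 promoters (7.68%) of genes called higher, in 66 of 1287 (5.13%) of genes called lower and in 4.3% of all. Of 41 interferon-stimulated genes 6 were called lower, 13 fell and Zbp1 rose, with a median log2 fold change of -0.587, but 27 did not pass the test, and the rise of Zbp1 was lost without any single library other than Scrambled replicate 1 (0.6842 to 0.8743). Gbp7, a guanylate-binding protein, fell from 30.5, 17.6 and 23.4 CPM to 2.79, 1.94 and 3.47 CPM and Psmb8, an immunoproteasome subunit, from 11.2, 8.21 and 10.4 CPM to 3.37, 2.18 and 3.34 CPM. Isg15 was at 47.2, 30.7 and 35.4 CPM and 24.6, 20.9 and 29.6 CPM and did not pass the test.

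Contractile genes fell. Smooth-muscle proteins such as α-smooth muscle actin and SM22α are markers of the myofibroblast, and of 28 genes in this list 14 were called lower, 20 fell and Cald1, Tpm1 and Fhl1 rose, with a median log2 fold change of -0.943. Tagln, which encodes SM22α, was at 429.9, 383 and 432 CPM in Scrambled and 192, 182 and 206 CPM in siR-2 cells. Myl9, the regulatory light chain, was at 86.0, 76.7 and 85.7 CPM and 32.4, 29.2 and 30.1 CPM, and Itga8, the integrin subunit of contractile mesenchymal cells, at 13.4, 12.8 and 11.9 CPM and 3.18, 3.33 and 2.86 CPM. None of these groups overlapped. Cald1, an actin-binding protein that was the most abundant of the rises, had a log2 fold change of 0.68, and Myh11, which marks mature smooth muscle, was at -0.13 and did not pass the test. The mural cell markers, which share contractile genes with this list, also had a lower sum with siR-2, and their part in the fall was not tested.

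Matrix genes did not move as a unit. Of 30 collagens 19 fell, Col3a1, Col5a2, Col4a6 and Col14a1 rose and 7 did not pass the test, with a median log2 fold change of -0.365, and Col3a1 was the one called higher. Col3a1, the fibrillar collagen of compliant tissue, rose from 2930, 2811 and 3051 CPM to 8062, 7940 and 8081 CPM, whereas Col6a3, a chain of the beaded-filament collagen, fell from 86.6, 89.8 and 86.3 CPM to 12.1, 12.2 and 12.4 CPM. Both changes were far larger than the spread between libraries. Fn1, which encodes fibronectin, fell from 8064, 8169 and 7491 CPM to 3085, 3310 and 3190 CPM, and elastin, encoded by Eln, from 413, 429.9 and 395 CPM to 229, 233 and 211 CPM. In the list of crosslinking, matricellular and elastic-fiber genes, 21 of 42 fell and 9 rose, with 6 called lower, Fn1 and Loxl2 among them, and Ccn3 called higher at a log2 fold change of 1.42.

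Matrix-degrading and ground substance genes were divided between rises and falls. Of 30 matrix metalloproteinases, TIMPs and ADAMTS enzymes 7 were called higher and Mmp17, Mmp24 and Timp4 lower, 14 rose and 11 fell, and Timp4 lost its call without any single library other than siR-2 replicate 1 (-4.464 to -3.709). Mmp17 fell short of 2-fold without Scrambled replicate 3, at a log2 fold change of -0.9158. Mmp8, the neutrophil collagenase, was at 0.81, 0.659 and 1.22 CPM in Scrambled and 4.43, 3.46 and 3.82 CPM in siR-2 cells, and Adamts5, the aggrecanase, at 273, 283 and 267 CPM and 564, 648 and 583 CPM. Mmp2, the constitutive gelatinase of fibroblasts, fell by 0.60 on the log2 scale while its inhibitor class member Timp3 rose by 0.88. Among 32 proteoglycan and hyaluronan genes, Vcan, Has1, Tnfaip6, Gpc1 and Prg4 were called higher and Ogn, Aspn, Cemip, Hapln1 and Hapln3 lower, where Hapln3 lost its call without Scrambled replicate 2 or 3 or siR-2 replicate 1 or 3 (-1.805 to -1.339). Prg4, the lubricant lubricin, rose from 8.41, 9.11 and 10.8 CPM to 55, 62.6 and 59.3 CPM, Has1, a hyaluronan synthase, rose by 1.63 on the log2 scale, and Cemip, which degrades hyaluronan, fell from 784, 825 and 764 CPM to 221, 238 and 218 CPM. Dcn and Vcan, the small proteoglycan decorin and the large proteoglycan versican, rose by 0.94 and 1.00 on the log2 scale.

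Some CF identity genes changed. Of 24 identity genes 6 rose and 8 fell, where 24.4% and 25.0% of all genes tested did. Tbx20, Cd248, Thy1 and Meox1 were called lower and none higher, where 7.23% and 3.42% of all genes were. Tbx20, a cardiac T-box factor, was at 1403, 1473 and 1422 CPM in Scrambled and 477, 462 and 514 CPM in siR-2 cells, and Cd248, the stromal glycoprotein endosialin, at 57.0, 57.6 and 58.2 CPM and 14.5, 13.1 and 14.7 CPM. Pdgfra, the usual surface marker of CFs, rose from 346, 363 and 344 CPM to 465, 455 and 473 CPM. Across 64 homeobox and mesenchymal transcription factors 13 were called lower and Meox2 higher, 30 fell and 15 rose, with Snai2 at a log2 fold change of -1.49 and Mef2c at -1.45 among the falls.

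Growth factor and receptor genes were altered in several families. Of 44 growth factor and receptor tyrosine kinase genes 22 rose and 10 fell. Fgf10, an epithelial mitogen, rose from 2.59, 3.13 and 2.04 CPM to 11.3, 13 and 12 CPM and Angptl4, a lipoprotein lipase inhibitor, by 1.55 on the log2 scale, while Met, the receptor of hepatocyte growth factor, fell from 35.1, 35.4 and 31.5 CPM to 10.0, 10.5 and 8.46 CPM. In the IGF axis, Igf1 fell from 81.5, 77.1 and 74.3 CPM to 33.3, 32.1 and 34.7 CPM and its binding protein Igfbp5 rose from 3.01, 2.60 and 3.40 CPM to 20.7, 16.9 and 18.7 CPM, with 7 rises and 9 falls among 18 genes. Of 45 TGF-β and BMP genes 26 fell and 13 rose, and 3 were called higher and Id4, Smad5 and Smad6 lower, near the shares of 3.42% and 7.23% of all genes, at log2 fold changes of -2.19, -1.5 and -1.36. Among 41 WNT genes 17 fell and 11 rose, with Wnt2, Rspo3 and Nkd2 called higher and Dkk3, Rspo2, Nkd1 and Ror2 lower.

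Receptors for vasoactive and adhesive ligands changed as well. Ednrb, the endothelin B receptor, rose from 2.37, 2.72 and 2.52 CPM to 10.3, 10.1 and 8.51 CPM, and Adora2b, the low-affinity adenosine receptor, from 11.4, 11.1 and 11.9 CPM to 42.2, 41.5 and 41.4 CPM. These were the 2 genes called higher of 48 in cGMP and cAMP signaling, of which 8 were called lower. Of all genes tested, 3.42% and 7.23% were called higher and lower. Of 21 integrins, Itgb8, Itgb6 and Itga2 were called higher and Itga3, Itga4, Itga8 and Itga10 lower. Itgb8, which helps to activate latent TGF-β, was at 17.7, 20.5 and 17.8 CPM and 66.0, 67.7 and 65.6 CPM, and Itgb1, the common β subunit, fell from 1761, 1785 and 1727 CPM to 1003, 991 and 1019 CPM. Hpgd, which inactivates prostaglandins, rose from 1.58, 1.44 and 1.34 CPM to 9.27, 10.1 and 9.01 CPM and Ptgs1, a cyclooxygenase, by 0.96 on the log2 scale, with 9 rises and 3 falls (Ptgis, Pla2g5 and Tbxas1) among 18 prostaglandin genes. In the TNF superfamily of 27 genes, the ligands Tnfsf15 and Tnfsf18 were called higher and Tnfsf10, Tnfrsf25, Cd40 and Eda2r lower, 11 rose and 6 fell. Tnfrsf25 lost its call without Scrambled replicate 3 or siR-2 replicate 1 (-0.9448 and -0.9716), and Tnfsf15 went from 25.7, 28.1 and 24.4 CPM to 107, 106 and 99.7 CPM.

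Other genes of plasminogen activation changed besides Serpinb2. Plau, which encodes urokinase, fell from 113, 110.2 and 111 CPM in Scrambled to 30.7, 33.6 and 29.4 CPM in siR-2 cells, and Plat, the tissue-type activator, by 0.77 on the log2 scale. In the coagulation list of 18 genes 7 rose and 8 fell. Of 20 complement genes 10 fell and C3, C7 and Cd55 rose, but C3 no longer passed the test without any single library other than Scrambled replicate 3 (0.461 to 0.6492).

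Axon guidance and cadherin genes fell more often than they rose. Of 58 semaphorin, plexin, ephrin and slit genes 34 fell and 13 rose, with a median log2 fold change of -0.485, and Plxnb1, a semaphorin receptor, fell by 2.79. Of 34 cadherin, protocadherin and gap junction genes 17 fell and 7 rose, with the protocadherin Dchs1 at a log2 fold change of -2.0 and the atypical cadherin Fat1 at -1.13. Of 33 cholesterol and fatty acid genes 20 rose and Cyp51, Hsd17b7, Srebf2 and Elovl6 fell, with Insig1, the retention protein of the sterol sensor, at a log2 fold change of 1.99, Mvd called higher and Hsd17b7 at -2.08. Of 32 respiratory chain genes 15 rose and 6 fell and Ppargc1a was called lower, of 34 ATF4 and unfolded protein response genes 15 rose and 12 fell, and of 19 clock genes 6 rose and 7 fell. In the RNA interference list of 18 genes, none was called, Ago1 and Ago2 rose and 7 fell, and Ago2, the slicing Argonaute, had a log2 fold change of 0.56.

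**Figure D4:**
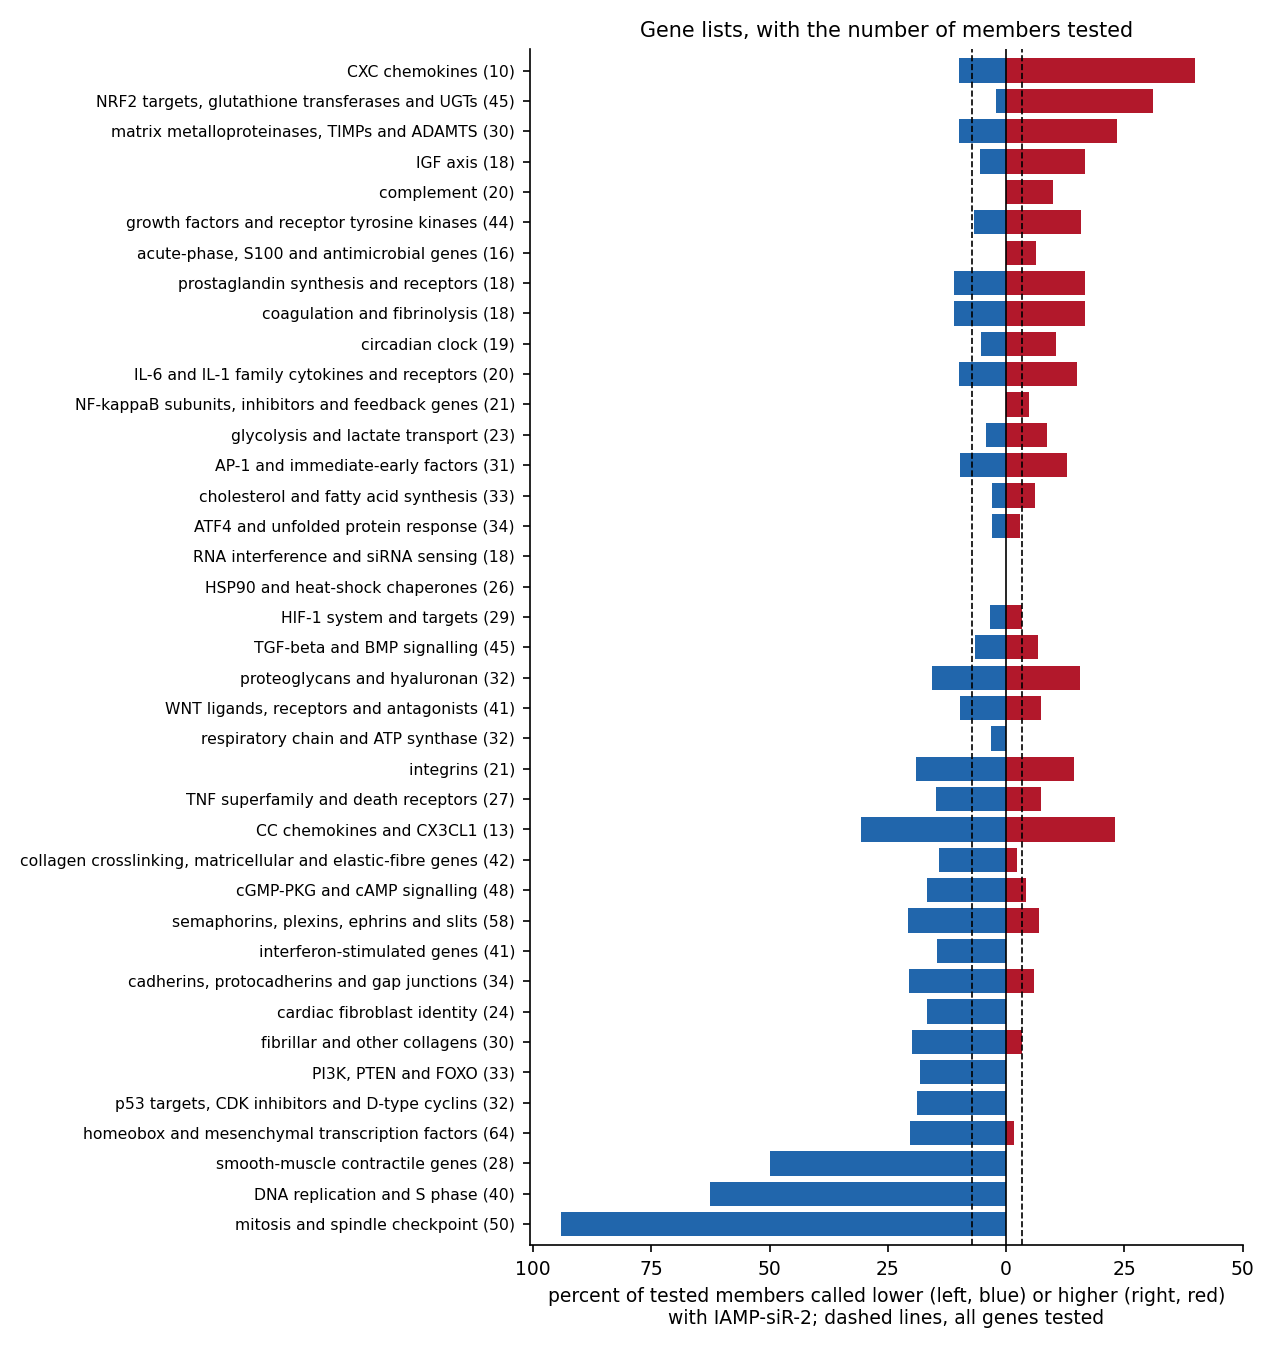
Percent of the tested members of each gene list that were called lower (left, blue) or higher (right, red) with siR-2 against Scrambled, with the number of members tested in brackets. Dashed lines mark the 7.23% and 3.42% of all genes tested that were called lower and higher, and mitosis genes (47 of 50) and DNA replication genes (25 of 40) lie farthest from them.

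A direct comparison of siR-2 with siR-1 asked which of these levels differed between siRNAs against the same transcript. It was drawn from the fit of all untreated libraries, so that the Scrambled libraries entered the filter and the estimate of spread but not the difference, and the siR-2 libraries were the same ones as above. Of 19669 genes, 441 were higher (2.24%) and 867 lower (4.41%) in siR-2 than in siR-1 cells at the same thresholds. Among the 672 genes called higher against Scrambled, 192 (28.6%) were also higher than in siR-1 cells, F3, Prl8a9, Aldh1a3, Slc9b2 and Hmox1 were lower, and 258 had an adjusted P over 0.05. Among the 1423 called lower, 550 (38.7%) were also lower than in siR-1 cells, 1700007K13Rik and Gp1ba were higher, and 398 had an adjusted P over 0.05. The siR-2 libraries enter both sets of calls, so these shares describe the called genes and are not independent of the first comparison.

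Genes that set siR-2 apart included metabolic, signaling and chromatin genes. Idh1, the cytosolic isocitrate dehydrogenase that yields NADPH, was at 101, 101 and 101 CPM in Scrambled, 44.5, 44.8 and 42.4 CPM in siR-1 and 262, 268 and 267 CPM in siR-2 cells, so that siR-1 libraries lay under and siR-2 libraries over the controls. The log2 difference between siRNAs was 2.60 ± 0.033. Serpinb2, Nr4a3, Alpl and Cd55 were higher than in siR-1 cells by 2.65, 2.58, 2.54 and 2.25 on the log2 scale, and Cd55 was at 43.0, 41.8 and 40.0 CPM with siR-1, close to its Scrambled level. On the low side, Nrk, a Nik-related kinase, was at 20.5, 23.1 and 17.2 CPM in Scrambled, 17.4, 20.1 and 20.7 CPM in siR-1 and 2.86, 2.07 and 2.48 CPM in siR-2 cells. Phc3, a Polycomb repressive complex 1 subunit, was at 63.4, 69.5 and 58.8 CPM, 64.9, 65.0 and 70.5 CPM and 11.8, 12.5 and 12.2 CPM in the same order, and Tmem260 was at 21.2, 20.8 and 19.8 CPM, 23.2, 23.0 and 20.8 CPM and 3.55, 4.22 and 4.24 CPM. All 3 were near the Scrambled level with siR-1 and low only in the siR-2 libraries of this table. Cemip and Amot, an angiomotin of the Hippo pathway, differed by -2.45 and -2.45 on the log2 scale.

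By list, 13 of 50 mitosis genes and 7 of 40 replication genes were lower in siR-2 than in siR-1 cells at the 2-fold threshold, and the medians of the difference were -0.851 and -0.471. Of 28 contractile genes 10 were lower, with a median difference of -0.735, and of 58 guidance genes 13 were lower and none higher. Hmox1, heme oxygenase 1, was lower with siR-2 than with siR-1, with a log2 difference of -1.56, and was called higher against Scrambled, at 242, 235 and 239 CPM in Scrambled, 1434, 1493 and 1460 CPM in siR-1 and 487, 488 and 515 CPM in siR-2 cells. Gclm did not pass the test between siRNAs, with a log2 difference of -0.06 ± 0.041.

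The same siRNA was also examined in CFs given IL-17, a cytokine that drives chemokine and IL-6 production through NF-κB and C/EBP factors, with its own Scrambled libraries. With siR-2 in those cells, 702 of 19906 genes were called higher (3.53%) and 1547 lower (7.77%), and 4982 rose (25.0%) and 5095 fell (25.6%). Of the genes called higher in untreated cells and tested under IL-17, 438 of 659 (66.5%) were called higher again, which is 62.4% of the IL-17 calls, and of those called lower 1064 of 1399 (76.1%) were called lower again, which is 68.8%. Median log2 fold changes of these genes were 1.447 and -1.465 in untreated cells, in which they were chosen, and 1.256 and -1.411 under IL-17. Of the mitosis and replication lists, 49 of 50 and 39 of 40 genes fell under IL-17, with medians of -1.62 and -1.22. Serpinb2, Kitl and Taldo1 had log2 fold changes of 4.02, 2.34 and 2.50 there, and Ccnd1 and Col6a3 of -2.09 and -2.86.

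The test of the difference between the effect of siR-2 under IL-17 and in untreated cells called 16 genes positive and 19 negative of 21219 (0.0754% and 0.0895%), and 12 of them were among the genes called in untreated cells at 1 CPM or more. Bcl3 and Cxcl1 were on the negative side. Bcl3 was at 29.5, 32.5 and 27.9 CPM in Scrambled and 37.0, 36.7 and 38.9 CPM in siR-2 cells under IL-17, and its log2 fold change was 0.33 there against 2.27 in untreated cells. Cxcl1 fell under IL-17, from 342, 310.3 and 308 CPM to 203, 192 and 197 CPM, whereas it rose in untreated cells. Socs3 and Cebpb had log2 fold changes of -0.34 and 0.67 under IL-17 and of 1.26 and 1.62 without it, and the differences between conditions were -1.59 ± 0.10 and -0.93 ± 0.068. Interferon-stimulated genes fell in 35 of 41 cases under IL-17, with a median of -1.19, and none of them was called in the test of the difference from untreated cells at the 2-fold threshold.

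In CFs given TGF-β, which drives myofibroblast differentiation, fewer genes were called. With siR-2, 155 of 19891 genes were higher (0.779%) and 432 lower (2.17%), and 2999 rose (15.1%) and 2948 fell (14.8%). Of the genes called in untreated cells and tested under TGF-β, 66 of 631 higher (10.5%) and 223 of 1369 lower genes (16.3%) were called the same way, which is 42.6% and 51.6% of the TGF-β calls. Their median log2 fold changes were 0.3728 and -0.545 under TGF-β, against 1.424 and -1.457 in the untreated cells in which they were chosen. The targeted gene fell less in these cells, with a log2 fold change of -2.65 against -3.69, and the difference of 1.03 ± 0.16 passed the test (edgeR quasi-likelihood, Benjamini-Hochberg adjusted P = 1.70e-05). Whether the smaller effects come with the smaller fall of the target was not tested. The siR-2 and Scrambled libraries under TGF-β held 104139670 to 108379622 estimated counts, with 2.867% to 3.67% from mitochondrial transcripts. Both ranges lay apart from those of the untreated libraries. The labels do not say whether these cells were handled together with the untreated cells. An effect of TGF-β therefore cannot be told apart from a difference between the sets of libraries.

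Most mitosis and replication genes also fell under TGF-β. Of 50 mitosis genes 49 fell and Pttg1 rose, with a median of -1.04, while 30 of 40 replication genes fell, with a median of -0.536. The test of the difference called Nuf2, Mki67, Racgap1, Cdc6 and E2f2 more positive than in untreated cells. The antioxidant list had 26 rises and 8 falls of 45. Of 41 interferon-stimulated genes 15 rose and Gbp7 fell under TGF-β, with a median of 0.253, and for 14 of them the effect of siR-2 was more positive than in untreated cells by the test of the difference. Of 33 cholesterol and fatty acid genes 5 rose and 15 fell, against 20 and 4 in untreated cells, and 1 and 3 of them were called more positive and more negative in the test of the difference. Fn1 was at a log2 fold change of -0.22 under TGF-β against -1.31 in untreated cells, and Cd55 at -0.10 against 2.1, where Cd55 did not pass the test under TGF-β. The differences between conditions were 1.06 ± 0.057 and -2.22 ± 0.071 on the log2 scale. Over all genes, the effect of siR-2 under TGF-β differed from that in untreated cells for 619 genes in the positive and 476 in the negative direction of 21508 (2.88% and 2.21%), and 510 of these were among the genes called in untreated cells at 1 CPM or more. The untreated libraries enter both the calls and the differences, so these counts are not independent of the choice of genes.

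**Figure D5:**
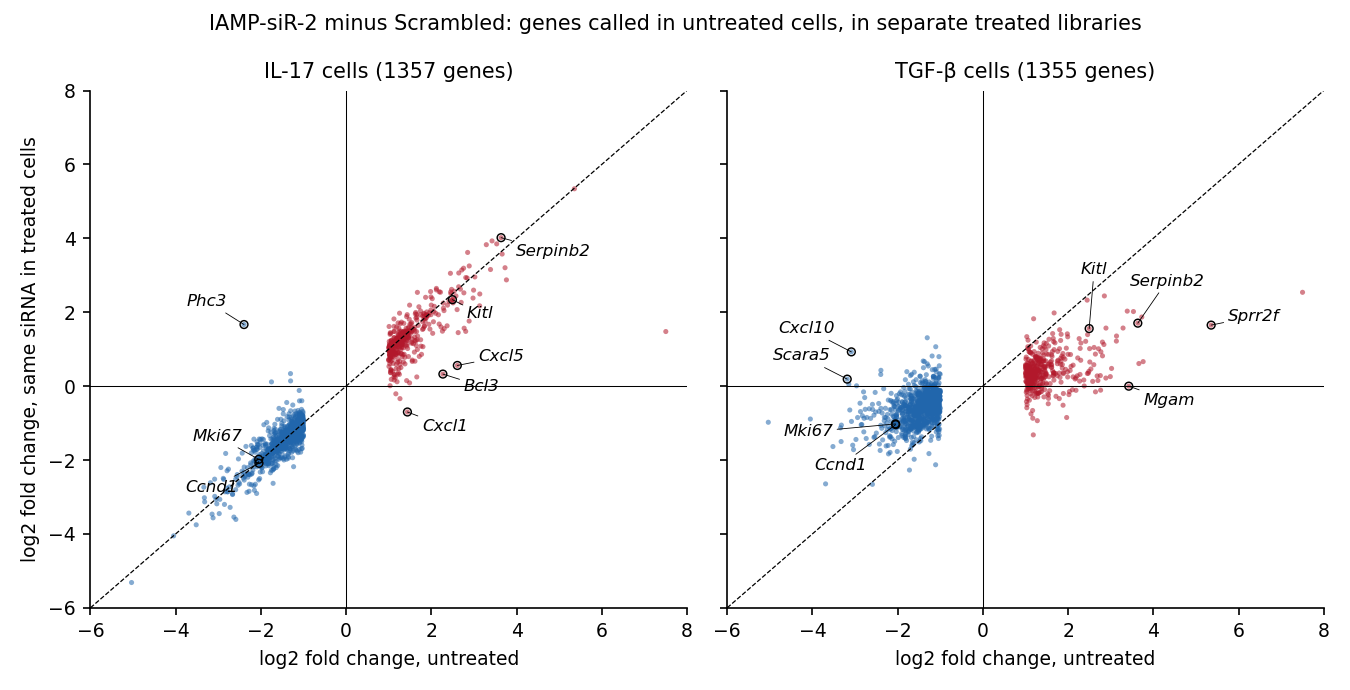
Log2 fold change of siR-2 against Scrambled in CFs given IL-17 (left) or TGF-β (right) on the y axis, against the same in untreated CFs on the x axis, for genes called in untreated cells at 1 CPM or more and tested in both. Points near the dashed line of equality had like effects, as most do under IL-17, whereas under TGF-β the points lie nearer to 0, with medians over all called genes of 0.3728 and -0.545.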

How the data were processed

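Per the study's methods, the authors trimmed reads with Cutadapt, aligned them to GRCm38 with HISAT2, quantified genes with StringTie and tested them with DESeq2. The deposited values are estimated counts per gene derived from coverage, in which 1 read pair stands for up to 6 counts, so the counts exceed the read pairs and levels near the floor of 18 counts rest on few reads.

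Groups followed the labels. The estimated counts, already whole numbers, entered edgeR 4.0.16 in R 4.3.3 (filterByExpr, TMM, robust quasi-likelihood), with all 9 untreated libraries in a single fit, and the fit was tested on simulated counts. Of 55487 genes in the table, 19669 passed the filter. The IL-17 and TGF-β tables were fitted separately, and differences between conditions were tested as an interaction in a fit over both tables. P values were adjusted by the Benjamini-Hochberg method over all genes tested. Gene positions are those of GENCODE vM21, and promoters, found for 12770 genes, those of RefSeq on GRCm38.p6, searched on both strands. Figures were made with matplotlib 3.10.9.

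The named genes are 4930523C07Rik, the largest changes with separated groups at a mean of 1 and of 100 CPM or more, anchors and strongest members of each list, and the largest differences from siR-1 and between conditions. Genes named because a count was 5 or less, and Pttg1, E2f1, Gsta4, Srxn1, G6pdx, Nfe2l2, Keap1, Wif1, Cald1, Cacybp, Rabgap1l, Tnr, Alb and Hp, were chosen after their values were seen. Members and lists were chosen with earlier results of these data known. The alternatives were DESeq2 1.42.0, RLE size factors, other filters and thresholds, counts divided by 6, a fit of only the groups compared, the replicate number as a block, and each library left out. The heart tissue table was not used here, and some genes are not reported here.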

Additional observations from a re-analysis of the deposited data

Results flagged for a closer look

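The effect of siR-2 differed between CFs given IL-17 and untreated CFs for 35 genes by the test of the difference itself (edgeR quasi-likelihood, adjusted P not above 0.05 and a log2 difference of 1 or more). Among genes called in untreated cells, the most positive differences were those of Phc3, 4.07 on the log2 scale, and Lpar4, a lysophosphatidic acid receptor, 1.45. Phc3 was at 14.3, 11.3 and 14.2 CPM in Scrambled and 13.7, 57.7 and 55.2 CPM in siR-2 cells under IL-17, with siR-2 replicate 1 apart from the other 2, and its difference missed the threshold in 8 of 12 fits that left out a library and with the replicate number as a block (3.813, edgeR adjusted P = 0.0513). Lpar4 was at 4.73, 4.91 and 4.62 CPM and 1.76, 1.72 and 2.31 CPM in untreated cells and at 4.77, 4.58 and 4.62 CPM and 4.90, 5.26 and 5.24 CPM under IL-17. The most negative differences were those of Cxcl1 (-2.13), Cxcl5 (-2.04) and Bcl3 (-1.94). Cxcl5 was at 1021, 957 and 1004 CPM in Scrambled and 1503, 1380 and 1511 CPM in siR-2 cells under IL-17, and its log2 fold change was 0.56 there against 2.61 in untreated cells.

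Between CFs given TGF-β and untreated CFs, the effect of siR-2 differed for 1095 genes by the same test. The most positive differences among genes called in untreated cells were those of 1110032F04Rik (4.04), Cxcl10 (3.99) and Scara5 (3.35). Cxcl10 was at 67.0, 118 and 96.9 CPM in Scrambled and 253, 163 and 121 CPM in siR-2 cells under TGF-β, and Scara5 at 0.231, 0.418 and 0.249 CPM and 0.385, 0.489 and 0.151 CPM. The most negative differences were those of Ugt1a2 (-4.97), Sprr2f (-3.73) and Mgam (-3.45). The difference of Sprr2f lost its call without untreated Scrambled replicate 1, untreated siR-2 replicate 3, TGF-β Scrambled replicate 3 or TGF-β siR-2 replicate 1 or 2 (-3.781 to -3.254), and that of Ugt1a2 was -8.406 without untreated Scrambled replicate 2. Mgam was at 1.63, 1.48 and 3.12 CPM in Scrambled and 2.25, 1.79 and 2.18 CPM in siR-2 cells under TGF-β, so that the rise seen without TGF-β was not seen with it. Ugt1a2 and Sprr2f were at or under the floor in untreated Scrambled cells, so the size of their fitted differences is not a measured fold. The cause of these differences was not tested, and TGF-β cannot be told apart from the separate set of libraries in which it was given.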

How the results depend on the processing

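Of 173 recomputed counts and values of the targeted gene, 153 stayed within 1.5 times the count or kept their call, and the 20 that moved came from the fold threshold. Of 623 recomputed list medians, 76 moved by more than the spread between siR-2 replicates and 17 changed sign. The largest move was that of the lymphocyte markers, from -0.9856 to -3.556 without siR-2 replicate 1. At a threshold of 1.5-fold in place of 2-fold, genes higher and lower were 1574 and 2582 in untreated cells, 1126 and 1995 against siR-1, 1605 and 2718 under IL-17 and 412 and 1082 under TGF-β, and differences from untreated cells were 103 under IL-17 and 2496 under TGF-β. By the adjusted P alone they were 4794 and 4908, 4471 and 4482, 4982 and 5095, and 2999 and 2948, with 400 and 6485 differences. In untreated cells, genes higher and lower were 532 and 1192 with counts divided by 6, and 562 and 1275 with at least 10 counts in every library. With each library left out in turn, genes higher and lower ran from 623 to 705 and from 1326 to 1438 in untreated cells, from 386 to 438 and from 819 to 912 against siR-1, from 643 to 685 and from 1453 to 1607 under IL-17, and from 126 to 171 and from 399 to 478 under TGF-β, with 34 to 42 and 1003 to 1092 differences and -3.739 to -3.621 for 4930523C07Rik. Some called genes then fell short of 2-fold. Without Scrambled replicate 3 these included Egr3 (0.9037), Vcan (0.9713), Osmr (0.9955), Itga10 (-0.9399) and 1700007K13Rik (-0.9315). Itga3 (-0.9596) did so without Scrambled replicate 1 and Meox2 (0.98) without siR-2 replicate 1.

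The labels number the replicates alike in each group. Deviations from the group mean correlated by 0.0258 to 0.0427 between same-numbered Scrambled and siR-2 libraries and by -0.118 to 0.0777 between the others. With 3 libraries per group these values cannot show whether same-numbered libraries were handled together, and the main fit did not pair them. With the number as a block, 652 genes were higher and 1388 lower, 416 and 852 against siR-1, 655 and 1500 under IL-17 and 139 and 420 under TGF-β. The block changed the calls of Ccl5 and of the Phc3 difference under IL-17. Hp turned from a log2 fold change of -0.31 to 0.8908 with the block and ran from -0.863 to 3.384 with a library left out, the latter without Scrambled replicate 3 (edgeR adjusted P = 1.056e-07). The differences of single genes between conditions and from siR-1 were recomputed under alternatives chosen after seeing the data, and 311 of 325 kept their call. The estimated counts limit what genes under 1 CPM can show.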

Other observations

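Scrambled replicate 3 of the untreated table held liver-type transcripts that the other libraries lacked or had at low levels. Alb, which encodes serum albumin, was at 0, 0 and 40.7 CPM in the Scrambled, 0, 0 and 0 CPM in the siR-1 and 0.0943, 0 and 0.354 CPM in the siR-2 libraries. Hp, which encodes haptoglobin, was at 0.231, 0.184 and 7.68 CPM, 1.85, 1.32 and 1.97 CPM and 2.36, 1.64 and 2.55 CPM in the same order. Without that library Hp was higher with siR-2, as given above, and the cause of its level there was not tested.

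Interferon-stimulated genes varied within the Scrambled group. Cxcl10 was at 13.6, 3.13 and 7.94 CPM and Ifit1, an antiviral RNA-binding protein, at 65.6, 24.4 and 44.8 CPM, with replicate 2 the lowest in both, whereas the siR-2 libraries were at 22.9, 25.2 and 31.5 CPM for Ifit1, which did not pass the test.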
